A study of Mus musculus with 9 samples.

Results

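The 10 genes described here encode 7 small heat shock proteins, Hspb1, Hspb2, Hspb3, Hspb6, Hspb7, Hspb8 and Cryab, and 3 chaperones of myosin, Unc45b, Smyd1 and Hsp90aa1. They were chosen by symbol, matched to Ensembl identifiers, and all 10 were found among the 38293 genes listed for muscle and the 46078 listed for cultured cells. RNA was sequenced from 9 mouse samples in 4 groups, all of the strain C57BL/6. GAS is gastrocnemius muscle of untreated adult female mice, in 3 biological replicates. MB are primary myoblasts kept in growth medium that had received PBS, in 2 biological replicates. The lactate-treated MB, also 2, had 10 mM sodium-L-lactate in PBS added to the medium. MT are primary myotubes obtained from MB after 3 days in differentiation medium, with the PBS control treatment, again in 2 biological replicates. The comparisons ask how the RNA of these genes differs between precursor cells and myotubes, whether lactate moves it in MB, and how much of it adult muscle holds. Nothing in the labels says how many mice or separate isolations the cultures came from, so p-values measure the spread between these samples only.

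Small heat shock proteins share a conserved alpha-crystallin domain and assemble into oligomers that hold unfolding proteins without using ATP, so that larger chaperones can refold or remove them. In muscle they sit on the Z-disc, desmin, titin and actin, and mutations in several of them cause myopathy or neuropathy. Myosin needs help of another kind: its motor domain does not fold without UNC45B, which works with the chaperone HSP90, and SMYD1 is a lysine methyltransferase of striated muscle that binds myosin and is needed for the assembly of sarcomeres.

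The genes lie on 8 chromosomes of GRCm38 (mm10). Hspb2 (chr9:50751078-50752354, minus strand) and Cryab (chr9:50751325-50756636, plus strand) are neighbours with start sites that face away from each other, and 2 of the 6 annotated Cryab transcripts begin inside Hspb2. Because of these transcripts, 252 bp of exon are common to both genes, 30.2% of the exonic length of Hspb2 and 17.0% of that of Cryab. Whether the counting used strand is not given in the sources used here, so reads in this stretch cannot be assigned with certainty. Hspb1 (chr5:135887919-135889563) and Hsp90aa1 (chr12:110690605-110702728) have near-identical copies elsewhere in the genome. The copy Hsp25-ps1, 99.8% identical over its longest match, held 8.66% as many counts as Hspb1 in GAS and at most 0.322% as many in the cultured groups. Gm12346, a copy of Hsp90aa1 with 99.5% identity, held 3.48% as many counts as Hsp90aa1 in GAS and at most 1.34% as many in culture. Levels of Hspb1 and Hsp90aa1 are uncertain by at least these shares.

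RefSeq promoter windows of the build GRCm38.p6 were found for 7 of the 10 genes. The 250 bases before the start site are shown for Hspb7, Unc45b and Hspb3, whose RNA differed most between MT and MB, and for Hspb1, which did not pass the test there. Capitals mark matches to the E-box CANNTG, bound by MYOD1 and MYOG, to the heat shock element GAANNTTC, bound by HSF1, and to the MEF2 motif. In Hspb1 the first heat shock element and the second E-box abut and form 1 run of capitals.
Hspb7 (chr4:141420529-141420778, plus strand): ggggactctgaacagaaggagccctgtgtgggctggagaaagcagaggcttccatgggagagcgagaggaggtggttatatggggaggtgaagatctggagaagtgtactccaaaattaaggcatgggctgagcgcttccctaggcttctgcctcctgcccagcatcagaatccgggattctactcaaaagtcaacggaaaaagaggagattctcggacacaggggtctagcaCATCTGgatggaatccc
Unc45b (chr11:82911003-82911252, plus strand): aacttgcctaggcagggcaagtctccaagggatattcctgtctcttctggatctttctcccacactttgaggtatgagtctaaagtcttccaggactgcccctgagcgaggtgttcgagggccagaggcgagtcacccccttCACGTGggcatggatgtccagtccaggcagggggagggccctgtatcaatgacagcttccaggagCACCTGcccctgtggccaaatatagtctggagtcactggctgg
Hspb3 (chr13:113663677-113663926, minus strand): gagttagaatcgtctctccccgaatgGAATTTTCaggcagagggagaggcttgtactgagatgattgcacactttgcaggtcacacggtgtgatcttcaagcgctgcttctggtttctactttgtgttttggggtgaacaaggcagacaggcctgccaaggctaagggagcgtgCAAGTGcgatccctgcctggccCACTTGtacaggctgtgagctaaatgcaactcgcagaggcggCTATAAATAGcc
Hspb1 (chr5:135887669-135887918, plus strand): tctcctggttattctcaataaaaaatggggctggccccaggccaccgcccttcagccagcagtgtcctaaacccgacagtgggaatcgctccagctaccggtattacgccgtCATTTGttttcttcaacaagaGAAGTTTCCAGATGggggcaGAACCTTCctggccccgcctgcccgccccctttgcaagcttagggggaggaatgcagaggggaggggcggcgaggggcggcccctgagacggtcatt
Hspb7 has 1 E-box, 17 to 12 bases before the start, and Unc45b has 2. Hspb3 has 2 E-boxes, a heat shock element 224 to 217 bases before the start and a MEF2 motif 12 to 3 bases before it. Hspb1 has 2 heat shock elements, at 117 to 110 and 97 to 90 bases before the start, and 2 E-boxes. An E-box was found in 5 of the 8 windows of these genes (Hspb6 has 2 windows) and in 66.2% of all 32851 windows. GAANNTTC was found in 3 of 8 and in 6.69% of all, and the MEF2 motif in 1 of 8 and in 2.92% of all. The window of Smyd1 holds none of them. TTCNNGAA, the E-box CAGCTG and the CArG box, bound by SRF, were in 0 of the 8 windows and in 7.17%, 13.0% and 1.47% of all. The patterns CANNTG, GAANNTTC and TTCNNGAA read the same on both strands, and all motifs were searched on both. A match is a run of letters and was not tested for binding.

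The GAS libraries held 19307793 to 19941574 counts on genes, those of cultured cells 5198247 to 10839516. Levels are given as RPKM, reads scaled to library depth and to the exonic length in kilobases, with TMM factors computed within GAS and within the cultured cells because the protocols differ (poly(A) libraries and Smart-seq2). GAS is therefore set beside the cultured cells without a test. Marker genes were checked against the labels, and the sum of 4 myotube markers (Myog, Mymk, Acta1, Ckm) was 5053 and 5378 RPKM in MT against 53.3 and 120 in MB. The adult fiber genes Myh4 and Pvalb had no count in MB, where Atp2a1 had 5.92 and 1.35 RPKM and Mb, myoglobin, 1.07 and 0.485. The 3 myoblast markers (Pax7, Myf5, Myod1) summed to 397 to 654 RPKM in MB and 85.0 to 207 in MT. In the test described below Pax7 fell in MT, while Myf5 and Myod1, lower in both MT libraries, did not pass. In MT replicate 1, 28599 genes had counts, against 15548 to 17965 in the other cultured libraries. The share of ribosomal RNA genes was 12.0% in MB replicate 1, 17.5% in lactate-treated MB replicate 1 and at most 3.06% elsewhere. Markers of cells other than muscle were also found. The 3 fibroblast markers (Pdgfra, Dcn, Col1a1) summed to 288 to 2069 RPKM in MT, against 0.259 to 0.308 in MB and 50.9 to 66.2 in GAS. Most of the sum in MT was Col1a1 (1998 and 268 RPKM in replicates 1 and 2), and Dcn had 69.9 and 18.9. Pdgfra had only 0.565 and 0.254 RPKM in MT and did not pass the test of MT against MB described below. Of the 3 markers of smooth muscle cells and pericytes, Pdgfrb was higher in MT (19.2 and 38.3 RPKM against 1.97 and 0.836 in MB), while Rgs5 overlapped between the groups and Myh11 was too low to test. Their sum was 21.9 to 38.4 RPKM in MT, 1.76 to 2.58 in MB and 47.6 to 51.6 in GAS. Endothelial markers summed to 20.0 to 22.5 RPKM in GAS and at most 1.67 in MT. Sums in GAS were 8.43 to 17.3 for adipocytes, 4.22 to 9.52 for Schwann cells and 1.78 to 2.44 for leukocytes. In MT these sums, in the same order, were at most 1.27, 1.02 and 3.10. In MT replicate 1 the endothelial genes Cdh5 and Kdr had 64 and 62 counts, and the leukocyte genes Ptprc and Adgre1 60 and 52. Each had 0 in MT replicate 2. The part of such cells in the results was not tested. In bulk RNA, fewer cells of a type and less RNA per cell cannot be told apart.

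All 10 genes exceeded 1 RPKM in GAS, and 9 of them had a mean above 20 RPKM. Cryab, which binds desmin and titin, was the highest at 271, 353 and 254 RPKM in replicates 1 to 3, 293 ± 53 (SD, n = 3), rank 114 among the 9874 genes over 1 RPKM. Hspb8, which works with BAG3 to remove damaged filamin, followed at 231, 223 and 179 RPKM. None of its replicates reached the lowest one of Cryab. Smyd1 was next with 147, 148 and 143 RPKM, and Hspb6, a small heat shock protein also known as Hsp20 and phosphorylated by PKA, had 128, 158 and 128. The ranges of Smyd1 and Hspb6 overlapped, so their order is not fixed by these samples. Order and overlaps of genes in GAS also depend on the length used. Exonic lengths are 4546 bp for Smyd1 and 2299 bp for Hspb6, and their longest transcripts have 3361 and 1980 bp. Unc45b (93.2, 89.6 and 90.5 RPKM) and Hspb1 (99.0, 93.1 and 80.1 RPKM), the small heat shock protein that protects actin filaments, also overlapped.

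Hspb2, which forms complexes with HSPB3, had 70.4, 75.9 and 73.5 RPKM in GAS. Hspb7, which binds filamin C and is found mainly in heart and skeletal muscle, had 48.3, 66.6 and 43.3. Hspb3 was the lowest small heat shock protein with 21.4, 22.5 and 19.8 RPKM, and Hsp90aa1, the stress-inducible cytosolic HSP90, the lowest of all with 13.2, 12.2 and 11.6. From Hspb2 down to Hsp90aa1, no range overlapped with that of the next gene. Apart from the overlaps of Smyd1 with Hspb6 and of Unc45b with Hspb1, the same held for the genes above. The replicates differed least for Smyd1 (coefficient of variation 1.91%) and Unc45b (2.07%) and most for Hspb7 (23.3%) and Cryab (18.0%). The median over the 10 genes was 8.60%, beside 5.43% for the 2261 genes in the same range of RPKM. Replicate 2 held the highest value of Cryab, Hspb6 and Hspb7 and, by smaller margins, of Hspb2, Hspb3 and Smyd1. Hspb1, Hspb8, Unc45b and Hsp90aa1 were highest in replicate 1. Replicate 2 was also the highest for Mb, the oxygen store myoglobin, with 930 RPKM against 541 and 442, and for the myosin genes Myh2 (252 against 111 and 144) and Myh1 (624 against 326 and 222). Whether the fiber types in the piece of muscle taken had a part in this was not tested.

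**Figure D1:**
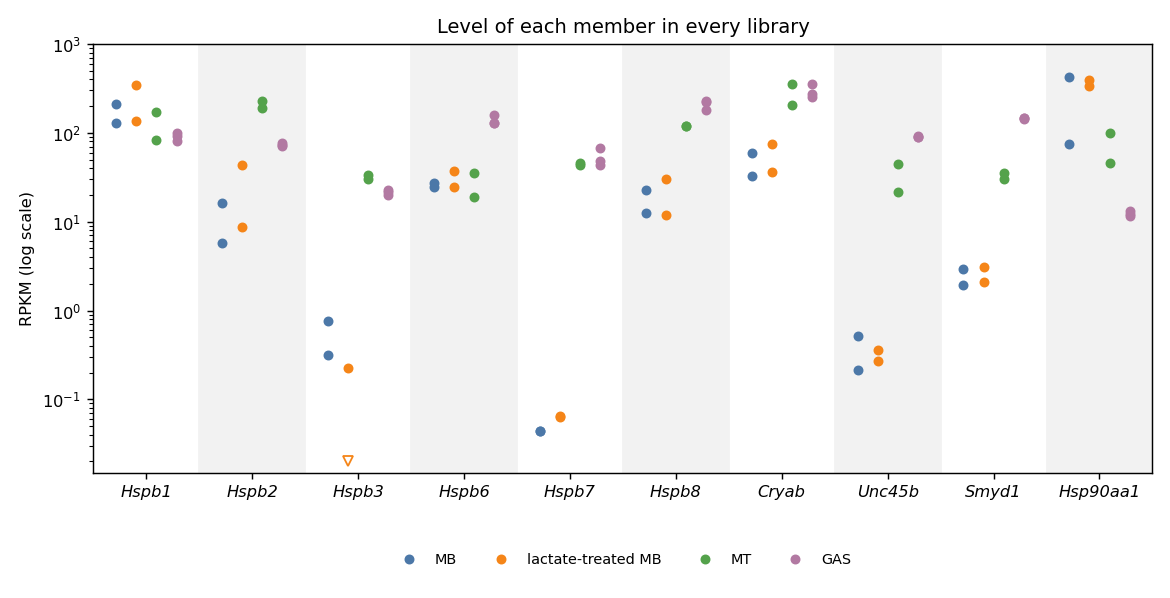
RPKM (log scale) of each of the 10 genes in every library, 1 point per library, colored by group. The open triangle at the lower edge marks Hspb3 in lactate-treated MB replicate 1, which had no count. Hspb7, Unc45b and Hspb3 lie under 1 RPKM in every MB library, with or without lactate, and between 21.8 and 46.3 RPKM in MT.

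MT was compared with MB by edgeR's quasi-likelihood test on 12921 genes with Benjamini-Hochberg adjustment, and a gene was called at an adjusted p under 0.05 and an absolute log2FC over 0.5. Of the 10 genes, 7 rose in MT, 0 fell and 3 did not pass. Among all genes tested 17.9% were called, 11.0% as higher and 6.86% as lower. Hsp90aa1, among the 3 others, had a negative log2FC with an unadjusted p of 0.0380 from edgeR. DESeq2 called it as lower, as it did 1292 of the 12921 genes. The 7 were higher in every MT library than in every MB library, which held for 32.9% of all genes, while 29.2% were lower in every MT library. The median log2FC of the 10 genes was 3.25, beside 0.07 over all genes. The 7 calls remained in 14 of the 15 alternatives tried, the exception being a filter of at least 10 counts in every library, which removes Hspb3, Hspb7 and Unc45b for their low counts in MB and calls the other 4.

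The difference was largest for Hspb7. It had 1 count in each MB library (0.0443 and 0.0435 RPKM) and 1597 and 1008 counts in MT (42.9 and 46.3 RPKM). With 2 counts in MB in all, the ratio of MT to MB was 1007 with an exact 95% interval from counting error of 278 to 8317. The fitted log2FC was 9.84 (SE 0.69, edgeR adjusted p = 8.72e-05) and fell to 8.53 with a prior count of 2. Hspb3, too, was near the limit of detection in MB. It had 2 and 5 counts in MB (0.314 and 0.772 RPKM) and 351 and 184 in MT (33.5 and 30.0 RPKM), with a log2FC of 5.84 (SE 0.74, adjusted p = 0.000646) and a ratio of 59.1 (28.5 to 148).

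Hspb2, whose protein partners with HSPB3, was already expressed in MB at 16.3 and 5.78 RPKM. It reached 188 and 226 RPKM in MT, with a log2FC of 4.19, an SE of 0.60 and an edgeR adjusted p of 0.00138. Its neighbour Cryab started higher, at 58.9 and 32.4 RPKM, and ended higher, at 208 and 353, with a smaller log2FC of 2.58 (SE 0.53, adjusted p = 0.00856). Cryab was therefore 3.61 and 5.60 times as abundant as Hspb2 in MB but 1.10 and 1.56 times in MT, beside 3.46 to 4.65 times in GAS. The MB and MT ranges of this ratio do not overlap, and the difference was not tested. Reads in the exon stretch that both genes share could not be assigned with certainty and enter this ratio. Hspb8 rose from 22.7 and 12.4 RPKM in MB to 119 and 120 in MT (log2FC 2.74, SE 0.50, adjusted p = 0.00481).

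Hspb1 and Hspb6 did not pass the test. Hspb1 had 209 and 129 RPKM in MB and 82.6 and 173 in MT, so that the groups overlapped, with a log2FC of -0.45 (95% interval -1.55 to 0.64, edgeR adjusted p = 0.567). Hspb6 had 27.4 and 24.7 RPKM in MB, between the MT values of 18.8 and 35.7 (log2FC 0.04, interval -0.96 to 1.04, adjusted p = 0.966). Its sign was negative in 4 of the alternatives, including without MT replicate 2 (-0.57) and without MB replicate 2 (-0.17). The intervals leave room for about a doubling of Hspb6 in either direction. In both genes the MT replicates lay further apart than in Hspb2, Hspb3, Hspb7 or Hspb8, with 2.09 times as much Hspb1 and 1.89 times as much Hspb6 in replicate 2 as in replicate 1.

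Among the myosin chaperones, Unc45b had 19 and 8 counts in MB (0.518 and 0.215 RPKM) and 1317 and 1555 in MT (21.8 and 44.0 RPKM). The log2FC was 6.43 with an SE of 0.67, and edgeR gave an adjusted p of 0.000202. Smyd1 was low but present in MB, at 2.91 and 1.94 RPKM, and reached 35.3 and 30.5 in MT (log2FC 3.75, SE 0.50, adjusted p = 0.000826). Both lay lower in MT than in GAS, where Unc45b had at least 89.6 and Smyd1 at least 143 RPKM, in libraries of another protocol.

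Hsp90aa1 showed the widest spread between replicates in MB. It had 74.4 RPKM in MB replicate 1 and 423 in MB replicate 2, against 45.8 and 99.4 in MT. The MT value of replicate 2 exceeded MB replicate 1, and the log2FC of -1.75 (95% interval -3.38 to -0.12) did not pass, with an adjusted p of 0.129 from edgeR. Leaving out MB replicate 1 gave -2.59 with an adjusted p of 0.000913, leaving out MT replicate 2 gave -2.48 with 0.0388, and leaving out MB replicate 2 gave -0.20 with 0.852. In each of these fits 1 group has a single library, which is assumed to vary like the other group, and the outcome is set by which library is left out. The DESeq2 Wald test called Hsp90aa1 at an adjusted p of 0.0419. The share of ribosomal RNA genes was 12.0% in MB replicate 1 and 2.15% in MB replicate 2. Proliferation markers Mki67 and Top2a summed to 24.8 RPKM in MB replicate 1 and 71.7 in MB replicate 2, and the part of either in the result was not tested.

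**Figure D2:**
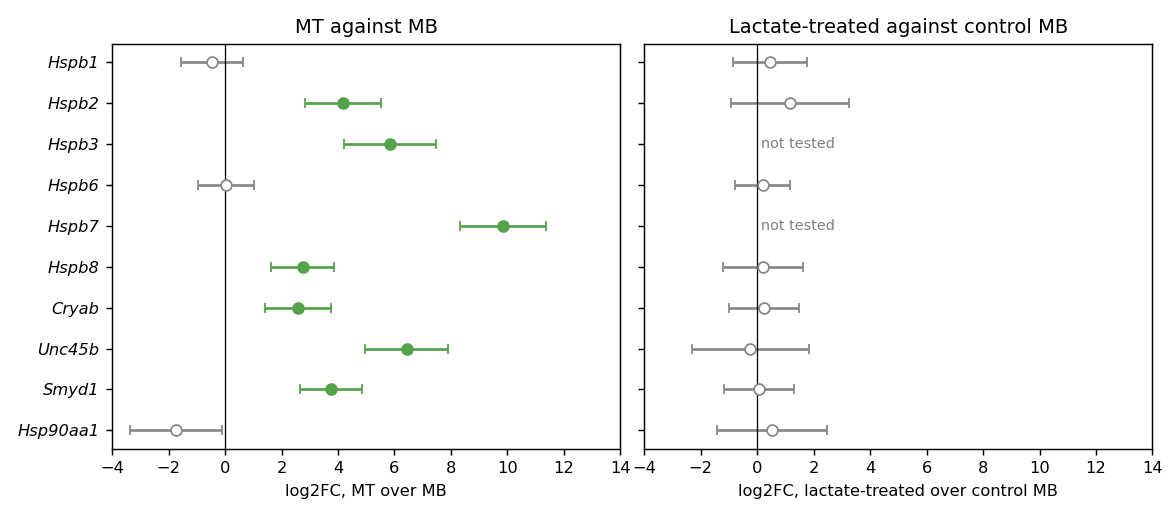
The log2FC of each gene with its 95% interval from edgeR's quasi-likelihood fit, MT over MB on the left and lactate-treated over control MB on the right. Filled green points passed the threshold and open grey points did not: 7 of 10 passed on the left and 0 of 8 on the right, where Hspb3 and Hspb7 were below the filter on low counts.

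The 7 small heat shock protein genes were also added up, to see which of them make up the pool of this RNA. Their summed RPKM was 205 and 335 in MB, 693 and 984 in MT and 778 to 991 in GAS. In MB, Hspb1 made up 62.5% and 62.8% of the sum, although its level in these libraries differed 1.63-fold. In MT it made up 11.9% and 17.5%, and in GAS 9.39% to 11.4%. Cryab took its place as the leading gene, with 15.8% and 17.6% in MB, 30.0% and 35.9% in MT and 31.2% to 35.6% in GAS. Shares within a sum depend on each other, and they are given without a test.

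MT and GAS differed in the genes that ranked after Cryab. Hspb2 held 27.2% and 23.0% of the sum in MT replicates 1 and 2 and 7.66% to 9.45% in GAS, with the uncertainty of the exon stretch it shares with Cryab. Hspb8 held 17.2% and 12.2% in MT and 22.5% to 26.6% in GAS. Hspb6 held 2.72% and 3.63% in MT, 8.18% and 12.1% in MB and 14.7% to 16.5% in GAS. Hspb7 had 4.70% to 6.20% in MT, close to the 5.56% to 6.73% in GAS, and at most 0.0213% in MB. Hspb3 never exceeded 4.83% in any library. It held 3.04% to 4.83% in MT and 2.27% to 2.55% in GAS. For Hspb1, Hspb2, Hspb3, Hspb6 and Hspb8 the ranges of MT and GAS do not overlap, in libraries of different protocols. Those of Cryab and Hspb7 do overlap. Hspb6 is the only gene of the 7 whose share in MT lay under those of both MB and GAS.

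**Figure D3:**
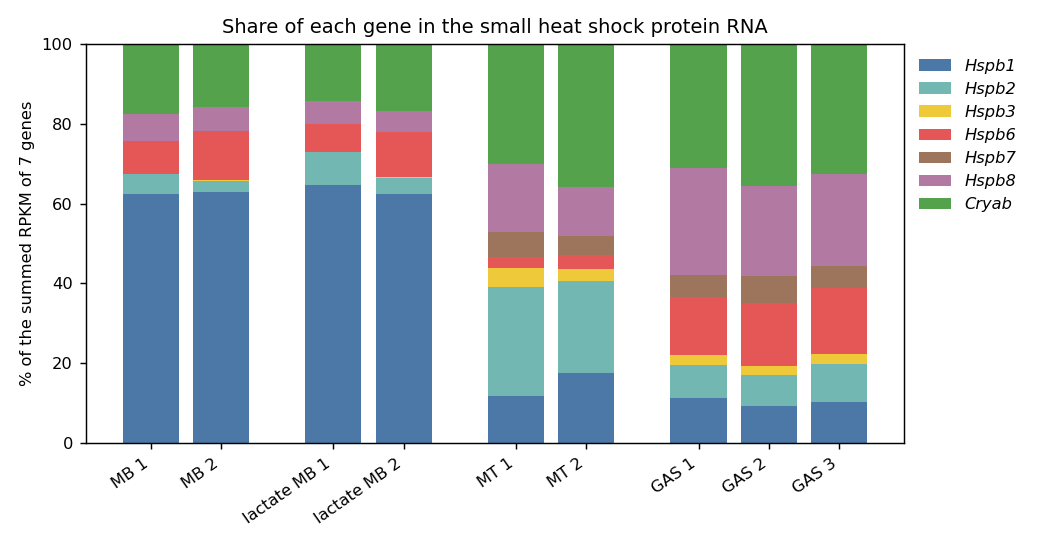
Share of each small heat shock protein gene in the summed RPKM of the 7 genes (percent, bars from 0 to 100), 1 bar per library. Hspb1 fills 62.5% to 64.8% of every MB bar with or without lactate and at most 17.5% of the MT and GAS bars, where Cryab is the largest part.

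The closest relatives of 2 myosin chaperones were set beside them. UNC45A is the form found in most cell types. Unc45a had 26.7 and 20.3 RPKM in MB and 5.61 and 12.9 in MT, lower in both MT libraries. Its log2FC of -1.39 (SE 0.49) was past 0.5, but the edgeR adjusted p of 0.0742 was not under 0.05 (unadjusted p = 0.0165). Unc45b made up 1.90% and 1.05% of the sum of both genes in MB, 79.5% and 77.4% in MT and 97.5% to 98.1% in GAS. So Unc45a was the main form in MB by RNA and Unc45b in MT and GAS.

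HSP90AB1 is the constitutive cytosolic HSP90. Hsp90ab1 had 1512 and 1217 RPKM in MB, 314 and 699 in MT and 314 to 323 in GAS, and it exceeded Hsp90aa1 in every library. Its log2FC in MT was -1.47 (SE 0.69, edgeR adjusted p = 0.168). Hsp90aa1 made up 12.8% and 12.4% of the sum of both in MT, although both genes differed more than 2-fold between the MT replicates. In MB it made up 4.69% and 25.8%, and in GAS 3.56% to 3.93%. The 5.69-fold gap of Hsp90aa1 between the MB replicates was not seen in Hsp90ab1. Of the HSP90 list, Chordc1 (5.87 and 27.1 RPKM), Hsp90b1 (67.8 and 250), Ppid (18.6 and 56.1) and Ptges3 (115 and 193) were also lower in MB replicate 1. The rest of the list, Hsp90ab1, Trap1, Ahsa1, Cdc37, Stip1, Fkbp4 and Fkbp5, was higher in MB replicate 1. The genes were sorted in this way after their values were seen.

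**Figure D4:**
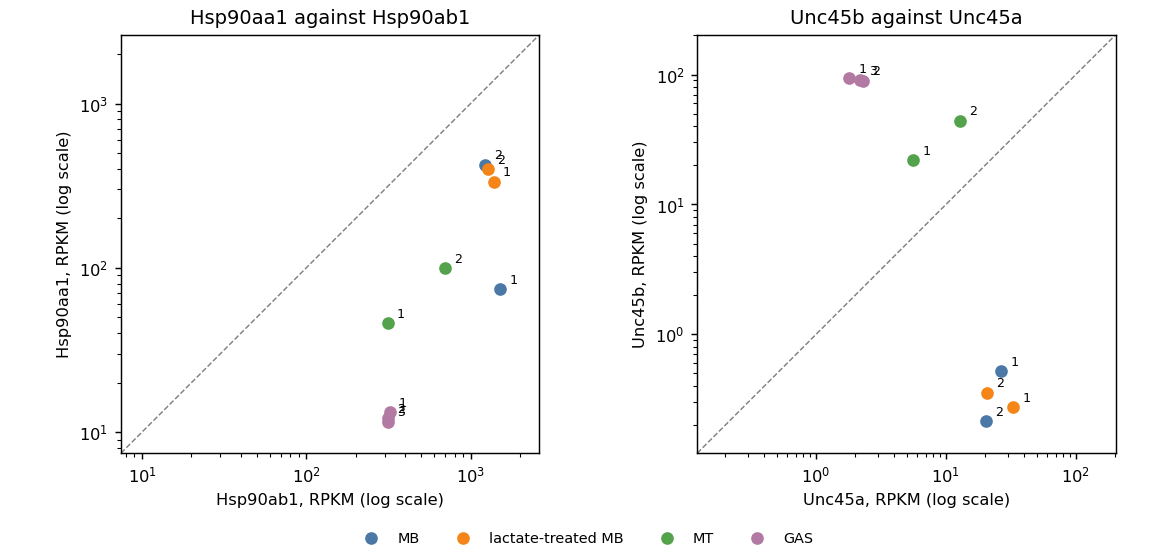
Hsp90aa1 against Hsp90ab1 (left) and Unc45b against Unc45a (right), RPKM on log axes, 1 point per library with its replicate number, colored by group. The dashed line marks equal levels: all points of Hsp90aa1 lie below it, and Unc45b lies below it in MB with and without lactate and above it in MT and GAS.

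Other genes of these systems were taken from fixed lists and read in the same fit. Of the 9 client genes, which encode myosin heavy chains, desmin, titin and alpha-actinin, 8 rose in MT and all 9 were higher in every MT library. Their median log2FC was 8.60, or 7.96 with Myh2 and Myh4, which had no count in MB, set to the bounds that 3 counts in a library allow. Myh2 was at least 34.5-fold higher in MT, and Myh4 at least 348-fold. Des, at 201 and 59.5 RPKM in MB and 365 and 773 in MT, was the one that did not pass (log2FC 2.05, SE 0.74, edgeR adjusted p = 0.0794). Of 7 genes of chaperone-assisted selective autophagy, the path by which HSPB8 and BAG3 send filamin to lysosomes, Synpo2 rose (log2FC 2.32, SE 0.45, adjusted p = 0.00658) and 6 did not pass, beside 11.0% of all genes called higher. Bag3 itself had 75.8 and 51.4 RPKM in MB and 30.5 and 54.7 in MT, with overlapping groups and a log2FC of -0.62. Hspa8, the constitutive HSP70, had a log2FC of -1.56 that did not pass (adjusted p = 0.137).

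Genes of the general folding machinery were called only as lower, in small numbers that are to be read beside the 6.86% of all genes called lower. In the HSP90 system 3 of 11 genes fell and 0 rose, and 9 of 11 were lower in every MT library, beside 29.2% of all genes. Fkbp4 fell by 2.27 on the log2 scale and Stip1 by 1.64, and Ptges3 was the third, all cochaperones of HSP90. In the TRiC chaperonin, which folds actin and tubulin, 3 of 8 genes fell (Cct2, Cct6a and Cct3) and 7 of 8 were lower in every MT library. Among heat shock factors and HSF1 targets 10 of 11 genes were tested, and Hspe1 and Hspd1, the chaperonin of mitochondria, fell by 2.59 and 2.27. By direction alone, 7 of the 10 had a log2FC under 0 and 3 over 0, beside 6160 and 6761 of all 12921 genes. Hspa1a was higher in both MT libraries (4.29 and 2.10 RPKM) than in MB (1.32 and 0.487 RPKM). Its log2FC of 1.82 did not pass (edgeR adjusted p = 0.145). Hsf1 had a log2FC of -0.87 that did not pass (edgeR adjusted p = 0.183). Of 5 relatives of Unc45b and Smyd1, Smyd5 and Smyd4 fell by 2.23 and 1.57. The lists themselves were not tested against other genes. The called genes of these 4 lists were lower in both MT libraries than in either MB library. Fkbp4, for example, had 59.9 and 84.7 RPKM in MT against 404 and 282 in MB, and Hspe1 had 32.0 and 75.8 against 307 and 328. The calls, however, were lost when MT replicate 1 was left out: 0 genes of the HSP90, TRiC, heat shock factor or relatives lists then passed, in a fit with a single MT library. Without MT replicate 2, 1 gene of the HSP90 system passed, and without MB replicate 2, 4 relatives did. Over all genes 2312 passed, 1232 without MT replicate 1 and 4921 without MT replicate 2. These 3 fits tested 12921, 13102 and 18831 genes, so their counts are not of the same genes. The proliferation markers summed to 12.4 to 15.8 RPKM in MT and 24.8 to 71.7 in MB, and their part was not tested. Of other genes listed beside the small heat shock proteins, Cryaa, the lens alpha-crystallin, had no count in any library. Hspb9 and Odf1 were too low to test, and Hspb11 did not pass (log2FC 0.77).

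**Figure D5:**
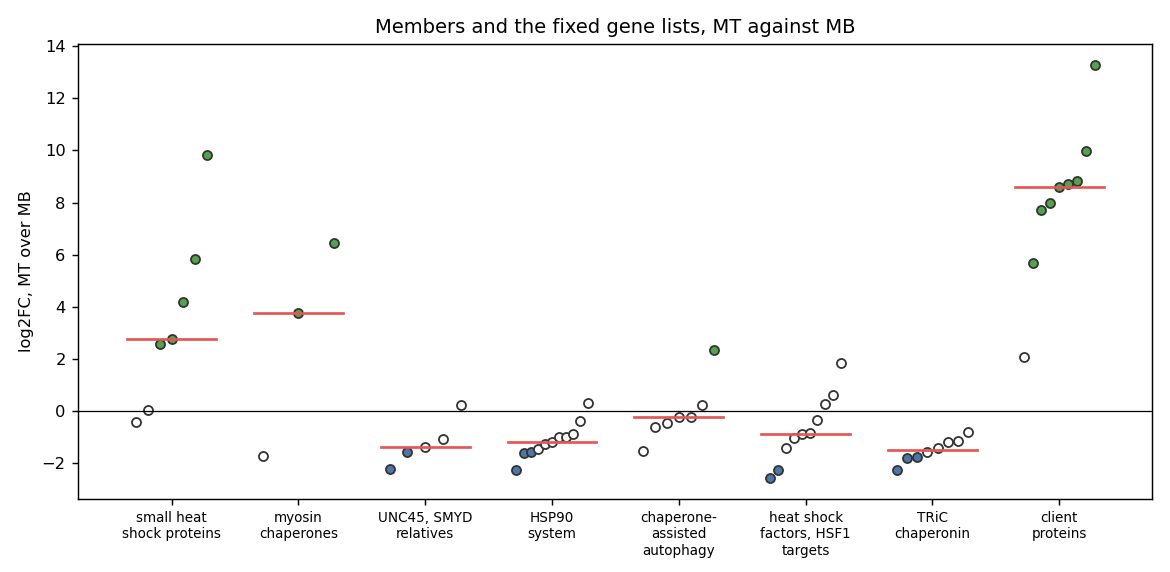
The log2FC of MT over MB for the genes of each list that were tested, 1 point per gene, with the median as a red line. Green points rose, blue points fell and open points did not pass: 5 of 7 small heat shock proteins and 2 of 3 myosin chaperones rose, as did 8 of 9 clients, while all called genes of the HSP90, TRiC, heat shock factor and relatives lists fell.

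Lactate-treated MB were compared with control MB by the same test on 11804 genes, with a gene called at an unadjusted p under 0.01 and an absolute log2FC over 0.5. Of the 10 genes 8 could be tested and 0 of the 8 were called, beside 0% of all genes, and 0 of the 8 had an unadjusted p under 0.05, beside 0.0424% of all genes. DESeq2 and the likelihood ratio test of edgeR also called 0 of the 8. Every adjusted p was 1.00. These tests left out the replicate number, although deviations of same-numbered libraries correlated at 0.71 across 11804 genes. Once edgeR allowed for a difference between replicates 1 and 2, 13 genes passed the same threshold, 0 of them among the 8. There Hspb2 had a log2FC of 1.01 (unadjusted p = 0.0152) and Hsp90aa1 had 1.00 (unadjusted p = 0.0469). With 2 pairs, shared numbers do not establish pairing. In none of the 8 did the lactate-treated libraries lie all above or all below the controls, a pattern found upward in 4.28% and downward in 6.84% of all genes. Hspb3 (0 and 1 counts with lactate, 2 and 5 without) and Hspb7 (1 count in each of the 4 libraries) were too low to test.

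In the test that left out the replicate number the intervals were wide, so that it could not detect changes of moderate size. Hspb2 had the largest difference, with 43.2 and 8.74 RPKM in lactate-treated replicates 1 and 2 and 16.3 and 5.78 in the controls (log2FC 1.18, 95% interval -0.91 to 3.27). Hsp90aa1 had 334 and 398 RPKM with lactate against 74.4 and 423 without (log2FC 0.52, interval -1.41 to 2.46). Hspb1 had 342 and 136 against 209 and 129 (log2FC 0.45, interval -0.86 to 1.76). The other 5 lay between -0.24 for Unc45b and 0.24 for Cryab. Among these, Hspb6 had the narrowest interval, from -0.77 to 1.16. Smyd1 had 3.09 and 2.11 RPKM with lactate and 2.91 and 1.94 without, and Unc45b 0.274 and 0.356 against 0.518 and 0.215.

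Replicate 1 held the higher value of Hspb1, Hspb2, Hspb6, Hspb8, Cryab and Smyd1 in both the control and the lactate-treated group. Cryab, for example, had 58.9 RPKM in control and 75.2 in lactate-treated replicate 1, and 32.4 and 36.2 in replicate 2. Hspb8 had 22.7 and 30.4 RPKM in replicate 1 and 12.4 and 11.8 in replicate 2. Directions turned when single libraries were left out. Such a fit holds unequal replicate numbers in the 2 groups, so its signs do not settle a direction for lactate. Without lactate-treated replicate 1, 7 of the 8 log2FC were under 0, and without control replicate 2, 4 were. Hspb2 reached 2.22 without control replicate 1 and -0.32 without lactate-treated replicate 1. Hsp90aa1 reached 2.28 without control replicate 2. None of these values passed the threshold. Of the summed small heat shock protein RNA, Hspb1 made up 64.8% and 62.5% with lactate, beside 62.5% and 62.8% in the controls, and Hspb2 made up 8.19% and 4.03%, beside 4.87% and 2.82%.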

How the data were processed

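RNA of GAS (3 samples, poly(A) libraries), MB, MT and lactate-treated MB (2 each, Smart-seq2) was sequenced. The authors trimmed reads with Trim Galore 0.6.6, aligned them to mm10 with HISAT2 2.2.1, counted them on genes with featureCounts (Subread 2.0.1) and deposited raw counts per gene, one file per sample. The annotation release, strand setting and handling of reads with several alignments are not given in the sources used here. Groups came from the labels.

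Names, positions and exonic lengths of genes are those of GENCODE M21 (GRCm38), which held 36429 of 38293 genes listed for GAS and 45229 of 46078 listed for cultured cells. CPM used TMM factors, and RPKM is CPM per kilobase of the union of exons. Tests were made with edgeR 4.0.16 in R 4.3.3 (filterByExpr, TMM, glmQLFit, glmQLFTest, prior count 0.125, Benjamini-Hochberg over all genes tested), with only the libraries compared in each fit. SE is the absolute log2FC over the root of F, and intervals are 95%. The scripts were tested on simulated data. Near-identical copies were searched with BLAST 2.17.0 (at least 95% identity over 150 bp). Figures used matplotlib 3.10.9. At these depths 3 counts correspond to at most 0.155 CPM for GAS and 0.577 CPM in culture. Such limits and counting intervals cover counting error only.

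Alternatives were RLE size factors, DESeq2 1.42.0, edgeR's likelihood ratio test, 2 other filters, the replicate number as a block, all 6 cultured libraries in one fit, removal of ribosomal RNA genes, an absolute log2FC over 1, a prior count of 2, for GAS other scalings and transcript lengths, and leaving out each replicate. The block with crossed numbers was chosen after seeing the data. The members and lists were chosen with earlier results of these data known. All members are named, and of other lists fixed key genes, the clients and up to 4 genes called in each direction. CUT&Tag data and other tissues were not analysed here.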

Additional observations from a re-analysis of the deposited data

How the results depend on the processing

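For MT against MB, the 7 members kept their calls and direction under RLE size factors, DESeq2, the likelihood ratio test, no filter, both blocks, all 6 libraries, removal of ribosomal RNA genes, an absolute log2FC over 1, a prior count of 2 and each replicate left out. A filter of at least 10 counts in every library tested 7 members and called 4, and gave 1444 genes, 1 TRiC gene and 4 clients. The members called ranged from 7 to 8 without each replicate, the eighth being Hsp90aa1. Over all genes the calls ranged from 1232 to 4921 without each replicate, with a shift of the median log2FC to as much as 1.00, and the median was 1.82 with no filter. Without each replicate the calls ranged from 0 to 4 for the relatives of Unc45b and Smyd1, from 0 to 4 for the HSP90 system, from 0 to 3 for heat shock factors and targets and from 0 to 4 for TRiC. DESeq2 and the likelihood ratio test each called 5 genes of the HSP90 system, 2 of chaperone-assisted selective autophagy and 6 of TRiC, and TRiC had 1 call with no filter. Fits without a replicate tested 13102 to 18831 genes and the fit with no filter 30070, against 12921 in the main fit. The causes were not tested.

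Without each replicate, the log2FC of Hspb6 in MT ranged from -0.57 to 0.38, negative without MT replicate 2 and without MB replicate 2 (-0.17). For lactate, 1 gene was called by DESeq2 and 1 with no filter, and 1 to 177 without each replicate, with 0 members in any of these. Without each replicate, the lactate log2FC ranged from -0.30 to 0.95 for Hspb1, -0.32 to 2.22 for Hspb2, -0.073 to 0.43 for Hspb6, -0.56 to 0.82 for Hspb8, -0.32 to 0.84 for Cryab, -0.73 to 0.58 for Unc45b, -0.19 to 0.47 for Smyd1 and -0.17 to 2.28 for Hsp90aa1. In GAS all 10 members stayed over 1 RPKM, and the length of the longest transcript moved 7 of them, Cryab to 387 and Smyd1 to 197 RPKM.

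Replicate numbers are shared between groups, but with 2 pairs they do not establish pairing. Deviations of same-numbered libraries correlated at -0.12 across 12921 genes for MT and MB and at 0.71 across 11804 genes for lactate. With the replicate block, MT against MB had 2271 calls, 1 of them in the HSP90 system and 1 in TRiC, the same 7 members were called, and Hspb6 had a log2FC of -0.0050. For lactate the block gave 13 calls, 7 higher and 6 lower, none a member, with Hspb2 at 1.01 (unadjusted p = 0.0152 from edgeR) and Hsp90aa1 at 1.00 (0.0469). With crossed numbers, MT against MB had 2059 calls, 2 in chaperone-assisted selective autophagy and 5 in TRiC, and Hspb6 was at -0.0048.

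Depth limits Hspb3, Hspb7 and Unc45b in MB, which had at most 19 counts in any control library.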
